A study of Mus musculus with 6 samples.

Results

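The 10 genes described here encode histone lysine demethylases of the Kdm family, namely Kdm1a, Kdm1b, Kdm2b, Kdm3a, Kdm4a, Kdm5a, Kdm5b, Kdm5c, Kdm6a and Kdm6b. They were taken by symbol from a deposited RNA sequencing table of 24672 mouse genes, and all 10 symbols had a row. The table compares cultured cells labelled female germline stem cells (FGSC) with cells of that kind taken through a differentiation protocol (Dif-FGSC), with 3 libraries in each group. All cells were C57BL/6 and beyond passage 20. FGSC were kept on inactivated STO fibroblasts with 10 ng/mL LIF, 20 ng/mL EGF, 10 ng/mL bFGF and 10 ng/mL GDNF. For Dif-FGSC the STO cells were removed and the cells were plated on inactivated granulosa cells, and the medium held retinoic acid at 0.1 µmol/L together with BMP4 and bFGF at 10 ng/mL each. Feeder cells, growth factors and retinoic acid therefore changed together and cannot be told apart, and the duration of the induction is not given in the labels. The series title names the onset of meiosis under retinoic acid and the accompanying organisation of chromatin.

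Histone demethylases remove methyl groups from lysines of histone tails and so reverse the work of histone methyltransferases. The Kdm1 enzymes are flavin-dependent amine oxidases, whereas the others carry a Jumonji C domain and use iron, oxygen and 2-oxoglutarate. Kdm1 and Kdm5 enzymes act on lysine 4 of histone H3 (H3K4), a mark of active promoters and enhancers, and Kdm6 enzymes act on H3K27, the mark of Polycomb repression. Kdm3a acts on H3K9, Kdm2b on H3K36 and Kdm4a on both. In the mouse germ line these enzymes have been studied for the resetting of chromatin in oocytes and spermatocytes.

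Values are FPKM, fragments scaled to transcript length and to the mapped fragments of the library, as deposited by the authors, and means are given ± SD (n = 3 in each group). Columns headed con were read as FGSC, and every direction rests on that reading. Low values implied a depth of 17.4 M to 27.3 M fragments per library. Across genes, libraries of a group correlated at 0.9936 to 0.9963 (Pearson, log2(FPKM + 1)) and libraries of different groups at 0.9625 to 0.968. The labelled cell type was not borne out by its markers. Of 10 germ cell markers 7 stayed below 0.1 FPKM in every library, among them Ddx4, Dazl, Sycp3 and Gfra1. Ifitm3 and Stra8 reached at most 0.177 and 0.120 FPKM, and Kit, which some blood cells also express, stood at 85.3 to 94.9 FPKM in FGSC and 114 to 115 in Dif-FGSC. Of 8 fibroblast and 8 granulosa markers 7 each stayed below 0.1 FPKM in every library, the exceptions being Thy1 at up to 0.464 FPKM and Amh at up to 0.615. Of 8 blood cell markers none stayed below 0.1 FPKM, and their summed level was 545 to 563 FPKM in FGSC and 706 to 737 in Dif-FGSC. Of these 8, 5 were called higher in Dif-FGSC, Laptm5 (from 99.8 ± 4.83 to 187 ± 4.59 FPKM) and Gata2 (from 185 ± 1.57 to 248 ± 6.98) with the largest gains in FPKM, Coro1a and Spi1 were not called, and Cd34 was below the filter. The part of these 5 markers in the differences below was not tested. Fewer cells of a type and less RNA per cell cannot be told apart in such bulk libraries.

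Promoter sequences were available for 8 of the 10 members, with 13 annotated starts, in the RefSeq-based table for build GRCm38.p6 (not matched: Kdm5a and Kdm6b). The submitters' processing notes name mm9 for the expression data, so these coordinates were not joined to it. The 250 bases before the start are shown, 5′ to 3′, for Kdm5b, which had the largest difference among members above 0 in every library, for its paralog Kdm5c, and for the most upstream start of Kdm3a, which of the same members had the most spread replicates. Capitals mark matches to the motifs searched, on either strand.
Kdm5b, chr1:134559928-134560177, plus strand: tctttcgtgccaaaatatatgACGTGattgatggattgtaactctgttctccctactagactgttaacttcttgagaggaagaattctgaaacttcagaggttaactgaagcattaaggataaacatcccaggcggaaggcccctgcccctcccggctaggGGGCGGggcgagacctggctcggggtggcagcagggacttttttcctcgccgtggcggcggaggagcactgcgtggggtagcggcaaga
Kdm5c, chrX:152232977-152233226, plus strand: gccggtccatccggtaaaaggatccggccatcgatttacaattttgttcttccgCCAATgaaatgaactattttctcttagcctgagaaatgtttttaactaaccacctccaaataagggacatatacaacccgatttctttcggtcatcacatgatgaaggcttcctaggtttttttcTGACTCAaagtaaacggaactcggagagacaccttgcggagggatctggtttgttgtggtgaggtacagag
Kdm3a, chr6:71632918-71633167, minus strand: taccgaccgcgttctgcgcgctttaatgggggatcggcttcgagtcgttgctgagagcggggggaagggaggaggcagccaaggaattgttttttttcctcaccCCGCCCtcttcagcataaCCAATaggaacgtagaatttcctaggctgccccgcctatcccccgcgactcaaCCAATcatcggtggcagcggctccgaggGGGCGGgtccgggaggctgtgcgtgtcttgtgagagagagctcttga

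The motifs searched on both strands were ACGTG (the core of hypoxia response elements), CACGTG (the E-box, every match of which also holds ACGTG on each strand), TGAGTCA (bound by AP-1), TGACGTCA (the cyclic AMP response element), GGGCGG (the GC box), CCAAT (the CCAAT box), AGGTCA (a core site of nuclear receptors) and the retinoic acid response element of the direct repeat type, a repeat of that core site after 5 bases of any kind. The Kdm5b window held 1 ACGTG, which 16.6% of 32851 promoter windows of the same length also held, and 1 GGGCGG, found in 32.7%. The Kdm5c window held 1 CCAAT, found in 33.9%, and 1 TGAGTCA, found in 4.46%. The Kdm3a window held 2 CCAAT and 2 GGGCGG and no ACGTG. The AP-1 motif TGAGTCA was found in promoters of 3 members, Kdm3a (at another start), Kdm4a and Kdm5c. AGGTCA was held by 2 of the 13 member windows and 14.0% of all, CACGTG by 1 and 6.02% of all, and TGACGTCA by none and 1.55% of all. The exact repeat searched as the retinoic acid element was found in none of the 13 member windows and in 3 of the 32851. With matches that rare and no variant forms searched, its lack in the member windows allows no conclusion. A match is a description of the letters and not a bound site.

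Of the 10 members, 7 were called higher in Dif-FGSC, none was called lower and 3 were not called (limma on log2(FPKM + 1), Benjamini-Hochberg adjusted p under 0.05 over 9162 genes with a mean of at least 1 FPKM). Among all genes tested 36.5% were called higher, 28.6% lower and 65.1% in either direction. That balance depends on scaling: 3343 were called higher and 2622 lower as reported, quantile normalization gave 2789 and 3185, and median-ratio scaling gave 3030 and 2990. Under quantile normalization limma called 6 members higher and none lower, with 1 lower at an unadjusted p under 0.05. All 10 members passed the filter, but Kdm1b passed through 2 Dif-FGSC libraries alone and was listed at 0 in the other 4 libraries, so that 6 members were called higher on values above 0 throughout. Without rescaling, no member was lower at an unadjusted p under 0.05 in limma. The median log2 difference was 0.33 over the 10 members, also 0.33 without Kdm1b, and 0.029 over all genes tested. After quantile normalization it was 0.25 over the members and -0.022 over all genes tested. The groups did not overlap for 7 members, Kdm2b among them, each with every Dif-FGSC library higher, where 70.7% of all genes tested had groups that did not overlap and 39.6% did so in that direction.

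**Figure D1:**
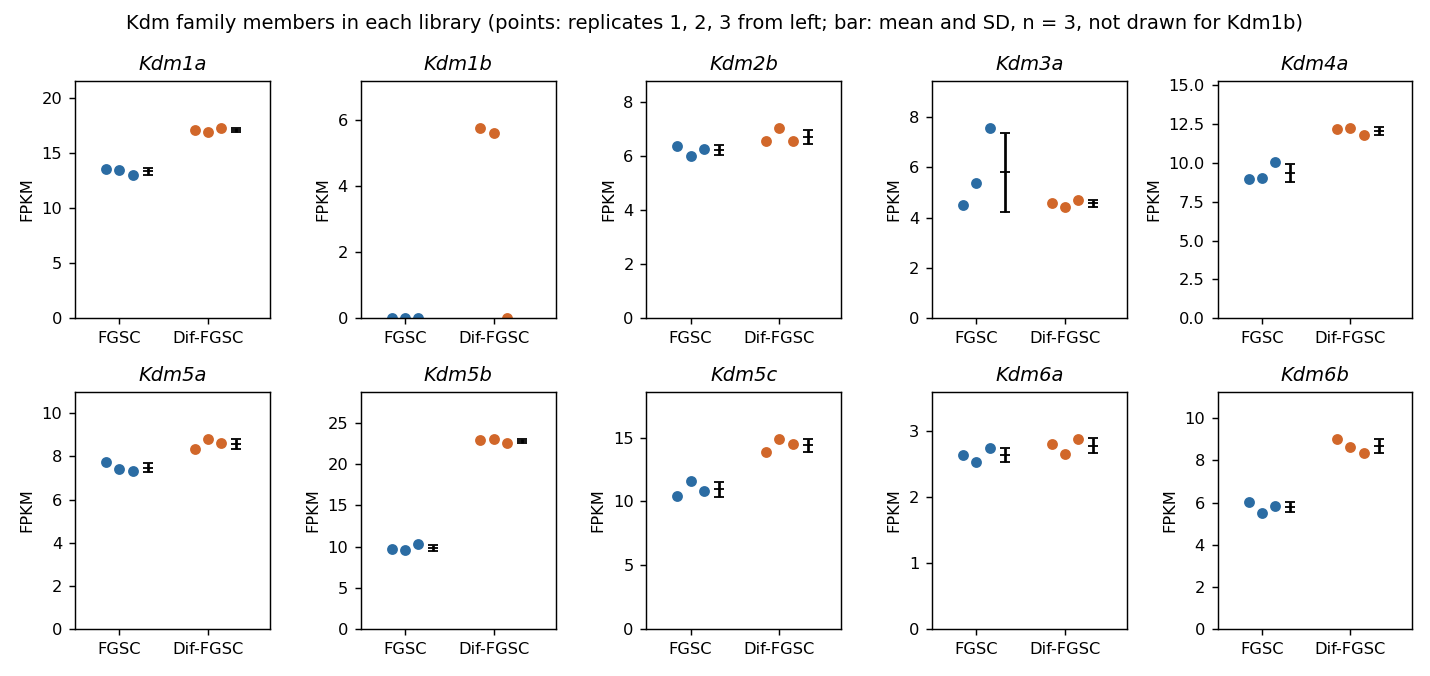
FPKM of each Kdm member (vertical axes, each from 0) in the 3 FGSC libraries (blue) and the 3 Dif-FGSC libraries (orange), with mean and SD beside them except for Kdm1b. Kdm5b shows the widest gap between groups, Kdm3a a wide spread within FGSC, and Kdm1b 4 libraries at 0.

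The H3K4 demethylases held the largest rise. Kdm5b, which removes methyl groups from tri- and dimethylated H3K4, stood at 9.68, 9.58 and 10.3 FPKM in FGSC replicates 1 to 3 and at 23.0, 23.0 and 22.6 in Dif-FGSC. Every Dif-FGSC library was above every FGSC library, and the distance between groups was far larger than the spread within them. The ratio of means was 2.32, with a log2 difference of 1.14 ± 0.037 SE (limma adjusted p = 5.33e-07), rank 136 from the top among the 9162 genes tested. Of the 15 alternative settings none ended the call, and the log2 difference ranged from 1.06 to 1.21.

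The other Kdm5 paralogs rose less. Kdm5c, an X-linked enzyme that also acts on tri- and dimethylated H3K4, stood at 10.4, 11.6 and 10.8 FPKM in FGSC and at 13.9, 14.9 and 14.5 in Dif-FGSC. Its groups did not overlap, and its log2 difference was 0.37 ± 0.048 SE (limma adjusted p = 0.000348, ratio of means 1.32). Kdm5a, first known as a partner of the retinoblastoma protein, stood at 7.72, 7.40 and 7.32 FPKM in FGSC and at 8.35, 8.80 and 8.60 in Dif-FGSC. The rise of Kdm5a was the smallest among those called, with a log2 difference of 0.18 ± 0.039 SE (limma adjusted p = 0.00502), and the call was lost after quantile normalization (log2 difference 0.082, limma adjusted p = 0.122).

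The unequal rises moved the balance among the Kdm5 paralogs. Kdm5b made up 34.8%, 33.5% and 36.2% of the summed Kdm5a, Kdm5b and Kdm5c FPKM in FGSC and 50.8%, 49.3% and 49.4% in Dif-FGSC. The share of Kdm5c was 38.7% ± 1.71 in FGSC and 31.4% ± 0.63 in Dif-FGSC (SD, n = 3), and that of Kdm5a 26.5% ± 1.12 and 18.7% ± 0.215. Kdm5c thus held the largest share in each FGSC library and Kdm5b in each Dif-FGSC library. The summed FPKM itself stood at 28.3 ± 0.419 in FGSC and 45.9 ± 0.784 in Dif-FGSC.

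**Figure D2:**
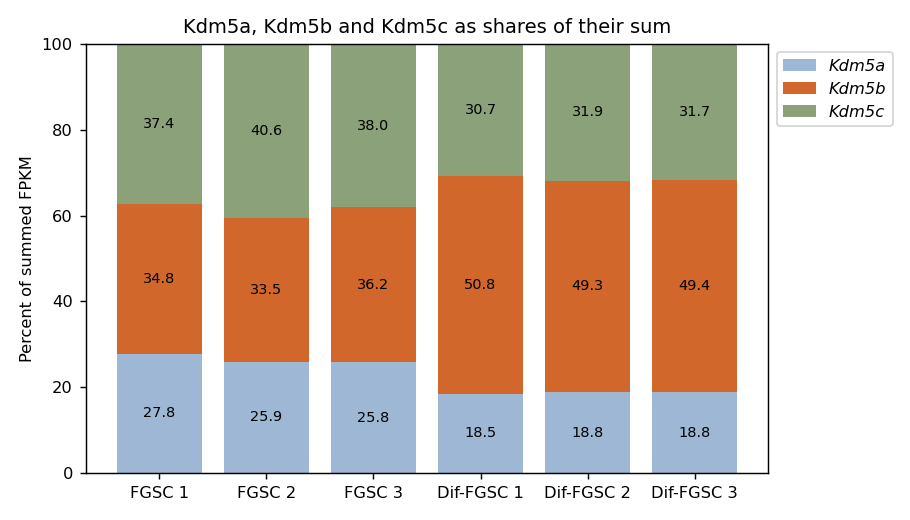
Share of Kdm5a, Kdm5b and Kdm5c in their summed FPKM (percent, vertical axis) in each of the 6 libraries. Kdm5b takes 33.5% to 36.2% in the FGSC libraries and 49.3% to 50.8% in the Dif-FGSC libraries.

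The Kdm1 enzymes differed in how well they were measured. Kdm1a (LSD1), the catalytic subunit of the CoREST complex, acts on mono- and dimethylated H3K4 and stood at 13.5, 13.5 and 13.0 FPKM in FGSC and at 17.1, 16.9 and 17.2 in Dif-FGSC. Its groups did not overlap, and the log2 difference was 0.33 ± 0.033 SE (limma adjusted p = 8.26e-05, ratio of means 1.28). Kdm1a had the highest FGSC level of the 10 members and the second highest Dif-FGSC level after Kdm5b, on the per-length FPKM scale. Values of Kdm1a, unlike those of Kdm5b, may be averages over transcripts, as described below, so these ranks hold only with that limit.

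Kdm1b (LSD2), which in the mouse is needed in growing oocytes for the setting of maternal imprints, was listed at 0 in all 3 FGSC libraries and at 5.74, 5.61 and 0 FPKM in Dif-FGSC replicates 1 to 3. The groups overlapped, since Dif-FGSC replicate 3 was at 0 like every FGSC library. At the estimated depth and with the longest GENCODE transcript of 4987 bp, the values above 0 correspond to about 644 and 546 fragments, while the floor of 3 fragments in replicate 3 is 0.0304 FPKM. Since a listing at 0 may reflect an estimate that failed, no fold is given. The call (limma adjusted p = 0.0435) was lost without Dif-FGSC replicate 1 (0.134), without Dif-FGSC replicate 2 (0.135) and without any one FGSC library (0.0911 to 0.0924). Without Dif-FGSC replicate 3 the adjusted p was 1.43e-06 and the log2 difference 2.74 in place of 1.83. Listing at 0 was not particular to Kdm1b: 84 of the 9162 genes tested (0.917%) were at 0 in at least 1 library, and 33 were at 0 in some but not all libraries of a group while another library reached 5 FPKM or more. Cmc1, a factor of cytochrome oxidase assembly, was the other tested gene at 0 in every FGSC library and in 1 Dif-FGSC library, again replicate 3, with 13.1 and 13.5 FPKM in Dif-FGSC replicates 1 and 2. The zeros of FGSC and of Dif-FGSC replicate 3 are therefore not read as absence of Kdm1b.

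Of the H3K27 demethylases, the inducible enzyme Kdm6b rose and Kdm6a was not called. Kdm6b (JMJD3) stood at 6.03, 5.53 and 5.82 FPKM in FGSC and at 9.01, 8.64 and 8.34 in Dif-FGSC. The groups did not overlap, with a log2 difference of 0.51 ± 0.046 SE (limma adjusted p = 5.29e-05, ratio of means 1.50). Kdm6a (UTX), the X-linked enzyme that belongs to the COMPASS complexes of Kmt2c and Kmt2d, stood at 2.63, 2.53 and 2.75 FPKM in FGSC and at 2.81, 2.66 and 2.88 in Dif-FGSC. These values overlapped, and the log2 difference was 0.055 ± 0.049 SE (limma adjusted p = 0.341) and -0.015 after quantile normalization. Kdm6b made up 68.7% ± 0.853 of the summed FPKM of the pair in FGSC and 75.7% ± 1.17 in Dif-FGSC. Values of Kdm6a, unlike those of Kdm6b, may be averages over transcripts, as described below, so the size of these shares holds only with that limit.

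Of the members that act on H3K9 and H3K36, Kdm4a was called higher and Kdm2b and Kdm3a were not called. Kdm4a, which acts on trimethylated H3K9 and H3K36, stood at 9.0, 9.05 and 10.0 FPKM in FGSC and at 12.2, 12.2 and 11.8 in Dif-FGSC. Its groups did not overlap, and the log2 difference was 0.34 ± 0.048 SE (limma adjusted p = 0.000541, ratio of means 1.29). Kdm2b, a CpG island-binding H3K36 demethylase that recruits a variant Polycomb complex, stood at 6.39, 6.00 and 6.27 FPKM in FGSC and at 6.56, 7.02 and 6.54 in Dif-FGSC. Each Dif-FGSC value of Kdm2b was above each FGSC value, but the log2 difference of 0.09 ± 0.044 SE was not called (limma adjusted p = 0.0924).

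Kdm3a, an H3K9 demethylase known as a target of hypoxia-inducible factor and needed for spermatid maturation in the mouse, stood at 4.48, 5.37 and 7.54 FPKM in FGSC and at 4.60, 4.42 and 4.70 in Dif-FGSC. FGSC replicate 1 lay within the range of Dif-FGSC and FGSC replicate 3 far above it. The coefficient of variation was 27.2% in FGSC and 3.1% in Dif-FGSC, whereas the other 8 members above 0 throughout had 2.31% to 6.29% in FGSC. The log2 difference of -0.26 ± 0.143 SE was not called (limma adjusted p = 0.144). It turned into a call for lower Kdm3a without FGSC replicate 1 (-0.40, adjusted p = 0.0233), and shrank to -0.084 without FGSC replicate 3 (adjusted p = 0.325).

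Some other genes of the hypoxia response, but not all, were also high in FGSC replicate 3. Kdm3a in that library stood at 1.53 times the mean of FGSC replicates 1 and 2. The same ratio was 1.55 for Ndrg1 (a stress-induced cytoplasmic protein), 1.55 for Ankrd37 (an ankyrin repeat protein), 1.28 for Ddit4 (an inhibitor of mTORC1) and 1.15 for Bnip3 (a mitophagy receptor). These were the highest ratios of the list. Its lowest were 0.923 for Arnt, 0.981 for Ldha, 0.988 for Vegfa, 0.991 for Egln1, 0.997 for Pgk1 and 1.00 for Pdk1. Of 15 tested genes of the hypoxia list 9 were highest in FGSC replicate 3 among the FGSC libraries, as were 43.4% of all genes tested. The median ratio was 1.10 over these 15 genes and 1.01 over all genes tested. Their part in the spread of Kdm3a was not tested. Between groups 1 of the 15 was called higher and 9 lower (median log2 difference -0.20), among them Bnip3, from 77.2 ± 6.96 to 38.2 ± 1.77 FPKM (limma adjusted p = 1.17e-05), and Egln3, an oxygen-sensing prolyl hydroxylase, from 35.0 ± 2.56 to 23.9 ± 0.113. Pgk1, a glycolytic enzyme, went from 456 ± 10.7 to 324 ± 4.1 FPKM and Ndrg1 from 26.0 ± 7.22 to 15.1 ± 0.503, both called lower. Ankrd37, also among the 9 called lower, was listed at 8.05, 10.2 and 14.1 FPKM in FGSC and at 0 in every Dif-FGSC library. These zeros may be a failed estimate, as for Kdm1b.

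**Figure D3:**
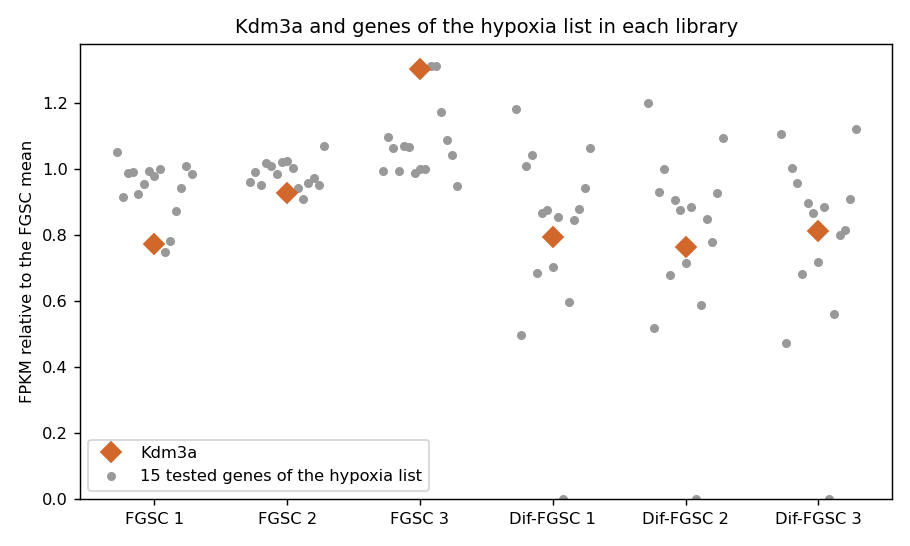
FPKM relative to the mean of the 3 FGSC libraries (vertical axis) for Kdm3a (orange diamonds) and 15 tested genes of the hypoxia list (grey points) in each library. Kdm3a is at 1.30 in FGSC replicate 3, next to Ndrg1 and Ankrd37, and between 0.763 and 0.812 in Dif-FGSC. In FGSC replicate 3 Pgk1 is at 0.998 and Arnt at 0.947.

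The difference between members of a pair was tested within libraries, as the log2(FPKM + 1) of one member minus that of the other. All pairs but Kdm3a with Kdm4a were paralogs. The test was an exact two-sided permutation over 3 against 3 libraries, where the smallest possible p is 0.1. That smallest p is above 0.05, so none of the 6 pairs compared could pass the threshold. The smallest adjusted p obtained over these pairs was 0.12. Kdm5b minus Kdm5c went from -0.14 ± 0.102 in FGSC to 0.63 ± 0.05 in Dif-FGSC (SD, n = 3 each, exact permutation p = 0.1), a change of sign in every library. Kdm5a minus Kdm5b went from -0.36 ± 0.0759 to -1.32 ± 0.037, Kdm5a minus Kdm5c from -0.49 ± 0.1 to -0.69 ± 0.0134, and Kdm6a minus Kdm6b from -0.90 ± 0.0465 to -1.35 ± 0.0741. Kdm3a minus Kdm4a went from -0.63 ± 0.249 to -1.23 ± 0.0609. In these 5 pairs the groups did not overlap, whereas for Kdm1a minus Kdm1b they did (exact permutation p = 0.4).

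Grouped by substrate and without Kdm1b, the H3K4 demethylases among the members summed to 41.6 ± 0.423 FPKM in FGSC and 62.9 ± 0.659 in Dif-FGSC, 1.51 times as much. The H3K27 pair summed to 8.43 ± 0.322 and 11.4 ± 0.325 FPKM (1.36 times), the H3K36 enzymes Kdm2b and Kdm4a to 15.6 ± 0.652 and 18.8 ± 0.456 (1.20 times) and the H3K9 enzymes Kdm3a and Kdm4a to 15.2 ± 2.15 and 16.6 ± 0.152 (1.10 times). The H3K9 sums overlapped between the groups and the others did not. These are sums of listed FPKM over the members alone, without other expressed demethylases such as Kdm3b, and are given as a description. The values of Kdm1a, Kdm2b, Kdm3a, Kdm4a and Kdm6a carried more than 6 significant digits, as did those of 38.8% of genes tested, and all 6 values of Kdm1a became 6-digit numbers when multiplied by 3. Such decimals arise when several 6-digit entries of a symbol are averaged, and an average over transcripts is lower than their sum. Levels of these 5 members therefore compare with those of other genes only with that limit, while Kdm5a, Kdm5b and Kdm5c carried 6 digits or fewer.

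Other demethylases outside the member list moved in both directions. Of 16 listed genes, 12 passed the filter. The test called 5 higher and 3 lower and left 4 not called, with a median log2 difference of 0.10. After quantile normalization 5 were higher and 4 lower (median 0.022). Kdm3b, an H3K9 demethylase and paralog of Kdm3a, rose from 11.4 ± 0.271 to 16.9 ± 0.355 FPKM (limma adjusted p = 1.24e-05). Phf8, an X-linked H3K9 demethylase, rose from 2.62 ± 0.0237 to 4.0 ± 0.206 FPKM and Kdm7a, of the same subfamily, from 0.86 ± 0.0994 to 1.62 ± 0.106. Kdm8, a Jumonji C hydroxylase, fell from 14.4 ± 0.779 to 7.26 ± 0.159 FPKM, the largest fall in this list (limma adjusted p = 3.66e-06, log2 difference -0.90). The Kdm4 paralogs Kdm4b and Kdm4c went opposite ways, Kdm4b from 2.79 ± 0.187 to 3.42 ± 0.165 FPKM and Kdm4c from 2.87 ± 0.0471 to 2.37 ± 0.00308, both called. Kdm4b, Kdm4c, Kdm4d and Hr are named after their values were seen. Kdm4d, a paralog most abundant in testis, did not exceed 0.0946 FPKM, and Hr was at 0.362 ± 0.0242 and 0.148 ± 0.0485 FPKM, below the filter.

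**Figure D4:**
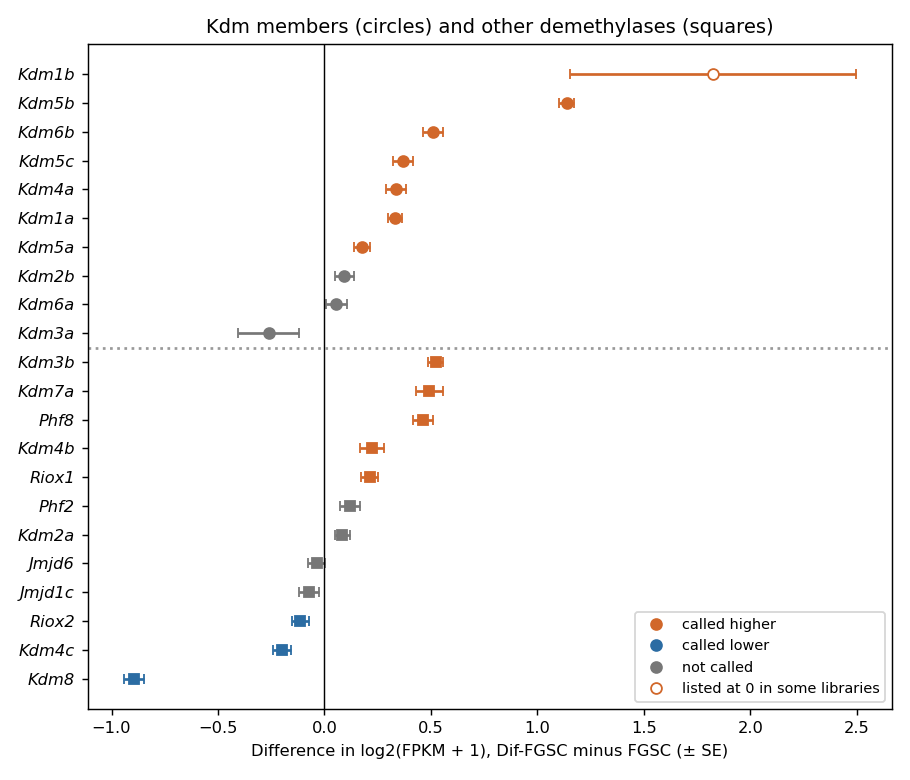
Differences in log2(FPKM + 1), Dif-FGSC minus FGSC, with SE (horizontal axis) for the 10 Kdm members (circles, upper part) and 12 other tested demethylases (squares). Orange marks genes called higher, blue genes called lower and grey genes not called. Kdm5b stands at 1.14, and the open circle of Kdm1b rests on libraries listed at 0.

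Proteins that work with the Kdm enzymes also moved in both directions. Of 11 tested partners of Kdm1a, 5 were called higher and 4 lower (median log2 difference -0.11), and after quantile normalization 5 were higher and 6 lower. Gse1, a subunit of LSD1 complexes, went from 3.99 ± 0.114 to 7.94 ± 0.169 FPKM, Rcor1, the CoREST scaffold, from 15.9 ± 0.495 to 23.1 ± 0.705, Rcor2, its paralog, from 18.2 ± 0.594 to 26.3 ± 1.22, and Gfi1b, a blood cell repressor that recruits LSD1, from 5.95 ± 0.147 to 8.66 ± 0.884, all called higher. Among the lower ones, named after their values were seen, the deacetylase Hdac2 went from 71.0 ± 2.19 to 55.0 ± 0.128 FPKM and Gfi1, the paralog of Gfi1b, from 7.40 ± 0.512 to 5.38 ± 0.343. Of 11 tested subunits of the NuRD deacetylase complex, 7 were called higher and none lower, 1 was lower at an unadjusted p under 0.05 in limma, and with median-ratio scaling 6 were higher and 2 lower and after quantile normalization 6 and 1. Its ATPase Chd4 rose from 39.6 ± 0.513 to 60.8 ± 0.712 FPKM and Mta1 from 20.2 ± 2.54 to 32.7 ± 0.561.

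The partners of Kdm2b in variant Polycomb complexes were split, with 3 called higher, 3 lower and 4 not called of 10, and 4 higher and 5 lower after quantile normalization. Bcor, a corepressor of this complex, rose from 3.86 ± 0.0377 to 5.95 ± 0.0534 FPKM, while Pcgf1, its defining Polycomb ring finger subunit, fell from 10.7 ± 0.224 to 5.71 ± 0.344 (limma adjusted p = 6.77e-06). Of 9 genes of the complex of Kdm6a 3 were called higher and 1 lower, and the median log2 difference was 0.073 and turned to -0.021 after quantile normalization. Of 15 genes that Kdm5 enzymes work with 7 were called higher and 3 lower (median log2 difference 0.10), and after quantile normalization 6 and 5 (median 0.013). Rb1, the retinoblastoma protein bound by Kdm5a, rose from 5.57 ± 0.258 to 8.82 ± 0.0292 FPKM and Morf4l1, a reader of H3K36 methylation, fell from 49.7 ± 0.548 to 35.9 ± 1.37.

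The methyltransferases that write the same marks were compared next. Of 10 tested genes of H3K4 methylation 6 were called higher and 1 lower (median log2 difference 0.18). With median-ratio scaling 5 were higher and 1 lower, and after quantile normalization 4 and 2 (median 0.099). Setd1b rose from 3.98 ± 0.22 to 7.99 ± 0.476 FPKM, Setd7 from 12.2 ± 0.937 to 18.9 ± 0.177 and Setd1a from 21.9 ± 0.77 to 30.6 ± 0.169. The 1 called lower without rescaling was Kmt2a, listed at 8.14, 8.65 and 10.5 FPKM in FGSC and at 0 in every Dif-FGSC library. These zeros may be a failed estimate, as for Kdm1b. Of 8 tested genes of H3K9 methylation 6 were called higher and none lower, nor was any lower at an unadjusted p under 0.05 in limma, while after quantile normalization 6 were higher and 1 lower. Atf7ip, a cofactor of Setdb1, rose from 9.90 ± 0.426 to 16.3 ± 0.288 FPKM. Of 8 tested genes of the H3K27 methyltransferase complex 2 were called higher and 2 lower (median log2 difference 0.0455), and after quantile normalization 1 and 3 (median -0.0445). Its catalytic subunit Ezh2 fell from 39.5 ± 0.749 to 35.8 ± 0.826 FPKM. Of 7 tested H3K36 methyltransferase genes 4 were called higher and 2 lower, with Nsd1 rising from 15.2 ± 0.166 to 20.2 ± 0.249 FPKM.

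Of 13 tested genes of enzymes that make or consume 2-oxoglutarate, the cosubstrate of the Jumonji enzymes, 2 were called higher, 7 lower and 4 not called. Of 5 genes of enzymes that use succinate or fumarate, which compete with that cosubstrate, 4 were called lower and 1 was not called. Sdha, Sdhb, Sdhc and Sdhd encode subunits of the same enzyme, as do Idh3a, Idh3b and Idh3g of another. These counts are therefore of genes and not of separate enzymes. Together these 18 genes had a median log2 difference of -0.14. After quantile normalization 3 of the 18 were higher and 9 lower (median -0.0995). Idh2, the mitochondrial isocitrate dehydrogenase, fell from 148 ± 1.22 to 89.3 ± 3.13 FPKM (limma adjusted p = 1.96e-06). Idh1, the cytosolic enzyme, was listed at 15.4, 15.8 and 27.7 FPKM in FGSC and at 9.02, 8.22 and 9.71 in Dif-FGSC, with FGSC replicate 3 again apart. Ogdh, a subunit of the 2-oxoglutarate dehydrogenase complex that consumes it, rose from 2.58 ± 0.163 to 9.15 ± 0.0911 FPKM (ratio of means 3.55).

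Kdm5c and Kdm6a lie on the X chromosome and in the mouse escape X inactivation, and both have a Y-linked homologue. The Y homologues Kdm5d and Uty were listed at 0 in every library, with floors of 3 fragments of at most 0.0216 and 0.0331 FPKM, as were Ddx3y, Eif2s3y, Zfy1, Zfy2, Usp9y and Sry. Xist, the RNA of the inactive X chromosome, was at 0.00235 FPKM in FGSC replicate 3 and at 0 in the other 5 libraries, and Tsix was at 0 throughout. Of the other X-linked genes of this list, Usp9x rose from 15.4 ± 1.38 to 18.6 ± 0.33 FPKM, while Ddx3x (157 ± 1.96 and 163 ± 1.85), Eif2s3x (63.9 ± 5.26 and 59.8 ± 1.77) and Zfx (1.08 ± 0.0353 and 1.27 ± 0.0144) were not called.

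The genes with profiles most like Kdm5b over the 6 libraries, by root mean square distance between centred log2(FPKM + 1) values, were Ppp1r15a (0.0203), a phosphatase subunit of the stress response, Zmat3 (0.0305), a p53-induced RNA-binding protein, and Pim1 (0.0394), a kinase induced by cytokines. They went from 13.0 ± 0.603 to 30.1 ± 0.343, from 2.99 ± 0.171 to 7.98 ± 0.255 and from 44.1 ± 0.525 to 95.8 ± 3.02 FPKM. For Kdm1b, which had the largest log2 difference of all members through its zeros, the nearest profiles were Cmc1 (0.519), Cox6a2 (0.807), a muscle-type subunit of cytochrome oxidase, and Mroh1 (0.853).

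**Figure D5:**
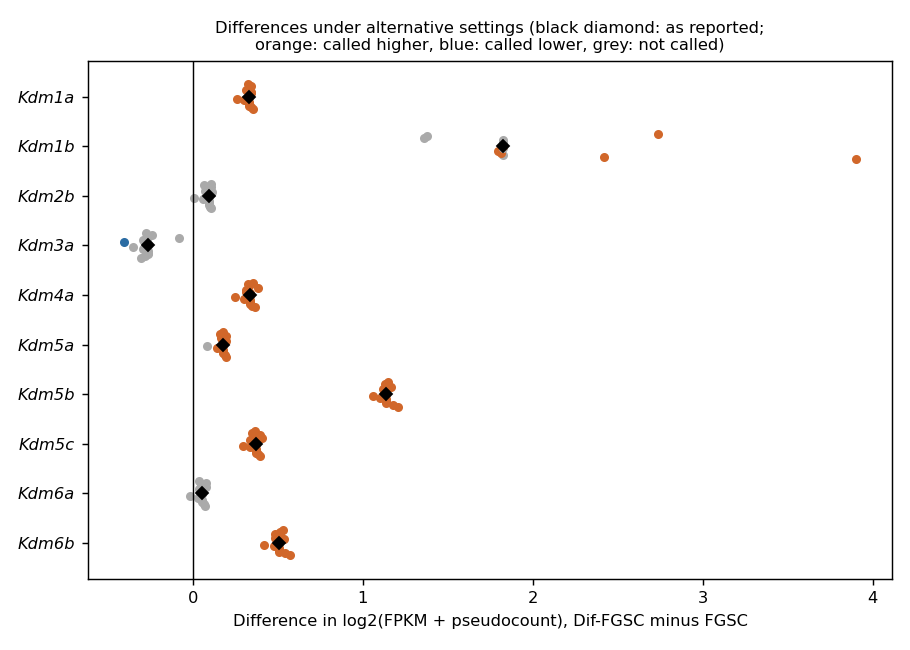
Log2 differences, Dif-FGSC minus FGSC (horizontal axis), of each member as reported (black diamonds) and under the alternative settings (points, orange where called higher, blue where called lower, grey where not called). Kdm5b stays between 1.06 and 1.21, and Kdm1b runs from 1.36 to 3.90.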

How the data were processed

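RNA was extracted with Trizol and made into stranded mRNA libraries, per the labels' protocols. The deposited table holds FPKM values made by the authors. HISAT2 4.8.2, Cufflinks 2.2.1 and build mm9 are named in the submitters' processing notes without roles, and the annotation, the strand setting and the handling of several transcripts per symbol are not stated there, in the labels or in the file header. Values of overlapping genes are therefore uncertain.

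Of 24674 rows, 2 duplicated symbols were reduced to the row with the higher mean. Columns con and dif were read as FGSC and Dif-FGSC. All genes with a mean of at least 1 FPKM (9162) were fitted with limma 3.58.1 in R 4.3.3 (eBayes with intensity trend) on log2(FPKM + 1), without covariates, and p-values were adjusted over all of them. This scale understates changes of low genes. The script was tested on simulated data. The labels name no separate cultures for the libraries, and p-values then reflect only library-to-library spread, possibly technical.

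Depth was estimated from the spacing of low FPKM values of genes with 1 GENCODE transcript. Between 67.6% and 70.4% of these values lay within 0.1 of a whole fragment number, at the spacing chosen to maximise that share between 10 M and 30 M fragments. Floors of 3 fragments cover counting error only. The members, 13 gene lists and tests were chosen with earlier results of these data known. The naming rule took from each list the called genes with the 4 largest absolute log2 differences among those above 0 in every library, genes at 0 throughout 1 group, and all sex chromosome genes, and the text prints a selection of these. Nearest profiles were named by rule for the member with the largest log2 difference, Kdm1b, and those of Kdm5b after its values were seen. The motifs were also chosen after the values were seen.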

Additional observations from a re-analysis of the deposited data

How the results depend on the processing

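Alternatives changed the pseudocount (0.1, 0.5), the filter, the scaling, the variance model, the pairing and the libraries used. Of 147 refitted values of the members, 137 kept direction and side of the threshold. Kdm1a, Kdm4a, Kdm5b, Kdm5c and Kdm6b were called higher in all 15 alternatives, and Kdm2b was called in none. After quantile normalization Kdm5a was no longer called (log2 difference 0.082) and Kdm6a turned to -0.015. The Kdm1b call was lost without a filter on low values and without an intensity trend (log2 difference 1.83 in both), and leaving out single libraries gave 1.36 to 2.74. A filter at a mean of 5 FPKM removed Kdm1b and Kdm6a, and leaving out genes listed at 0 removed Kdm1b. Leaving out single libraries moved Kdm3a between -0.40 and -0.084 and the number of members called lower between 0 and 1, with 6 to 7 called higher. The cause of these changes was not tested.

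Same-numbered libraries deviated together with correlations of 0.13, 0.01 and 0.17 across genes, so the numbers were not taken to pair them. With the replicate number as a block 5798 genes were called in place of 5965, 7 members were higher and none lower, and FGSC replicate 2 did not correlate best with its own number. Of 58 other genes with a call that were checked, 53 kept it in every alternative that tested them and none turned direction. The 5 that lost it in at least 1 were Kmt2d, Mtf2, Phf19, Riox2 and Wdr5. Some of the 58 are not printed above, and Hdac2, Gfi1, Laptm5 and Gata2 were not among them. Depth of 17.4 M to 27.3 M fragments leaves Kdm4d, at an estimated 5 fragments or fewer, without a usable comparison.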
